A study of Homo sapiens with 2 samples.

Results

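The peaks described here were the 712 of 17847 SOX9 peaks in HT-29 cells (3.99%) whose summit lay more than 1 kb and up to 3 kb upstream of the nearest transcription start site (TSS). They are called distal promoter peaks below. Each summit was placed on the TSSs of all transcripts of GENCODE release 44 on hg19, and position alone decided membership. HT-29 is a human colorectal adenocarcinoma line. The study compared chromatin that was immunoprecipitated with a rabbit SOX9 antibody (Millipore AB5535) with input chromatin of the same line, both fixed in 1% formaldehyde for 15 min and neither otherwise treated. There was 1 ChIP library and 1 input library, so no value below has a replicate error, and each test compares peaks or sequence windows of these libraries, not experiments. Both libraries held 12320108 tags, and the labels name DMEM as the medium where the methods name McCoy's 5A. Comparisons were made with the 6627 peaks within 1000 bp upstream of a TSS (proximal upstream peaks), the 798 peaks 1 to 3 kb downstream, and the 6706 peaks farther than 3000 bp from a TSS. The 16 peaks in the last 50 bp short of the near limit had a median of 42.5 tags (range 18 to 83) and the 29 in the first 50 bp beyond it had 44 (19 to 117). At the far limit, the 14 peaks in the last 50 bp had a median of 28.5 tags (16 to 154) and the 19 in the next 50 bp had 31.0 (14 to 179).

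SOX9 is a transcription factor of the SOX family that bends DNA through its HMG box and binds short sites with a CAAAG or CAATG core, alone or as a dimer on an inverted pair of such sites. In the intestine it is present in the crypt, where it follows Wnt signalling and is needed for Paneth cells. CCAAT boxes, the binding sites of the histone-fold factor NF-Y, and the GC-rich sites of Sp and ETS factors are typical of sequence next to a TSS, whereas AP-1, a dimer of JUN and FOS proteins, is typically found at enhancers. Sequence a few kilobases upstream of a TSS may therefore hold either kind of site.

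The windows below show 4 kinds of sequence found under distal promoter peaks, each with 2 or 3 peaks of many tags. All are 61 bases of the plus strand of hg19 and are named by the gene of the nearest TSS. In the sets with a marked site, the window is centred on the site and not on the summit. The site lay 18 bp from the summit at ZBTB32, 96 bp at RPL13AP20, 22 bp at FRY, 51 bp at ZMIZ1-AS1 and 74 bp at ENSG00000286373. The windows of RPL13AP20, ZMIZ1-AS1 and ENSG00000286373 therefore do not reach the summit. The first set holds Motif 1, a CCAAT preceded by a pair of purines and followed by C or G and then a purine, and the capitals mark it (here as its reverse complement).
ZBTB32, chr19:36193393-36193453: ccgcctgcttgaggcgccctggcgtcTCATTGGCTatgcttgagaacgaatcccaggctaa
RPL13AP20, chr12:13025545-13025605: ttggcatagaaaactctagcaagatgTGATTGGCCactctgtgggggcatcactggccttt
The second set holds Motif 3, an inverted pair of the SOX core at a spacing of 4 bases with up to 2 mismatches in 1 of its copies. The capitals mark both copies and the spacer.
MARCKSL1, chr1:32804056-32804116: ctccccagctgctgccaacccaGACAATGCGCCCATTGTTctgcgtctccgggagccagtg
COX19, chr7:1017582-1017642: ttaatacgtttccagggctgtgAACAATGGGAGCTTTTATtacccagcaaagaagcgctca
IFI35, chr17:41162926-41162986: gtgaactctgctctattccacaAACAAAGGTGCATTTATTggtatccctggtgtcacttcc
The third set holds the AP-1 site TGANTCA, in capitals.
ZMIZ1-AS1, chr10:80724895-80724955: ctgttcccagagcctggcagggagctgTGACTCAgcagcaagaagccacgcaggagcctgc
FRY, chr13:32556819-32556879: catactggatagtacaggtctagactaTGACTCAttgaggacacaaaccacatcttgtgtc
ENSG00000286373, chr10:65389407-65389467: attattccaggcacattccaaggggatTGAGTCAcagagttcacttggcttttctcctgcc
The fourth set has none of these sites and lies in CpG island-like sequence. The capitals mark CG dinucleotides, and the summit is the middle base.
MLLT6, chr17:36860201-36860261: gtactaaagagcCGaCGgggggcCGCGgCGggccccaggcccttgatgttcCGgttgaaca
LENG9, chr19:54976084-54976144: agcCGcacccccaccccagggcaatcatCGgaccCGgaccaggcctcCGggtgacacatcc

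Distal promoter peaks held fewer tags than proximal upstream peaks, and no difference in tags from the other peaks away from TSSs was detected. They held a median of 37.5 tags (quartiles 26.0 and 53.2, range 12 to 339), against 57.0 for proximal upstream peaks, 38.0 for the downstream peaks and 36.0 for the peaks farther than 3000 bp. More tags than the median peak of the whole list, which had 45, were found in 249 of the 712 (35%, Wilson 95% interval 31.6% to 38.5%), against 49.4% of all 17847 peaks. The share was 29.7 percentage points lower than in proximal upstream peaks (64.7%, adjusted exact p = 4.68e-51, two-sided Fisher's exact test). From the downstream peaks (37.3%) it differed by -2.37 points (interval -7.20 to 2.49, adjusted exact p = 0.507), and from the far peaks (33.9%) by 1.08 points (adjusted exact p = 0.662). The fold enrichment over the local input had a median of 10.4 in distal promoter peaks and 10.5 in proximal upstream peaks. By fold enrichment, 49.9% lay above the median peak, a difference of -0.767 points from the proximal upstream peaks (adjusted exact p = 0.785) and -4.93 points from the far peaks (adjusted exact p = 0.0257). All 712 peaks had a higher maximum in the ChIP signal than in the input signal of the same interval, where signal is the number of extended tags in a bin of 32 nt. The medians were 18.0 and 5.0, and the ratio was under 2 in 15 peaks.

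The distal promoter peaks with the most tags were of 2 forms, broad and narrow. The peak upstream of MLLT6, which encodes a PHD finger protein fused to MLL in leukaemia, held the most tags, 339 (Poisson interval 303.9 to 377.1), over 5488 bp, and its highest SOX9 signal was 35 against 11 in the input. Peaks at BCL9L, a co-activator of beta-catenin (244 tags over 4230 bp), and ST3GAL1, a sialyltransferase (233 tags over 3446 bp), were of the same form. Of the 10 with the most tags, 6 were wider than 2 kb, whereas only 9 of all 712 were. The intervals of all these 6 reached across the nearest TSS itself, as 13 of the 712 intervals (1.83%) did.

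ZBTB32, a zinc finger transcriptional repressor, had the tallest of the narrow peaks. It held 228 tags (199.4 to 259.6) within 952 bp at a fold enrichment of 43.52, with a highest SOX9 signal of 164 and a highest input signal of 9. Of the 10 with the most tags, 4 had a highest SOX9 signal of 100 or more, among them ZBTB32, ABLIM1 (an actin-binding LIM protein, 109) and the unnamed gene ENSG00000279005 (109). Only 1 more of the 712 reached that level, MARCKSL1, a MARCKS-like regulator of actin, at 100. The highest fold enrichment among peaks of 45 or more tags was at JUNB, a subunit of AP-1, with 52.89 (119 tags, interval 98.6 to 142.4). LINC01588 (49.11), MARCKSL1 (43.75), ZBTB32 (43.52) and ABLIM1 (42.06) followed. The broad peaks had far lower enrichment, 7.79 at MLLT6 and 9.07 at BCL9L. Input was raised over the surrounding 1 Mb at some of these sites, to 3.32 times the median autosomal window at ST3GAL1, 2.75 times at ENSG00000253266 and 2.11 times at MLLT6. At others it was low, 0.640 times that median at JUNB and 0.269 times at ENSG00000279005. In all, 26 of the 712 peaks (3.65%) lay in windows of more than 2 times that median, against 2.62% of all peaks and 3.59% of the far peaks. The part of the raised input in the tag counts of these 26 was not tested.

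**Figure D1:**
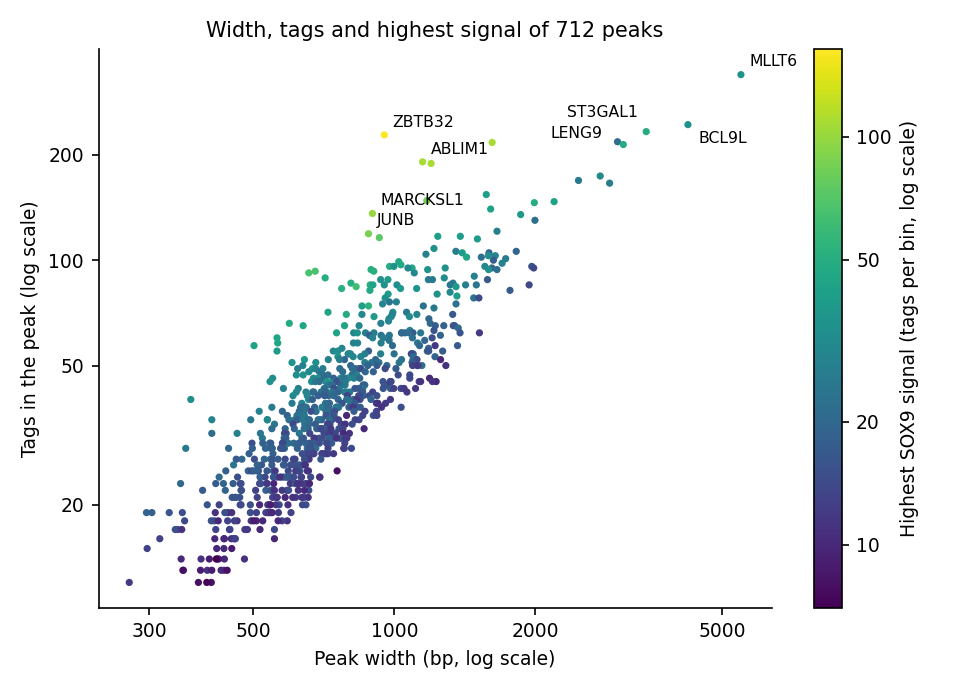
Tags in each of the 712 distal promoter peaks (vertical axis, log scale) against the width of the peak in bp (horizontal axis, log scale), coloured by the highest SOX9 signal in tags per 32-nt bin. ZBTB32, ABLIM1, MARCKSL1 and JUNB stand above the other peaks of their width, while MLLT6, BCL9L, ST3GAL1 and LENG9 have many tags spread over wide intervals with a signal of 21 to 48.

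The nearest TSS belonged to a protein-coding gene for 407 of the 712 peaks (57.2%), to a long noncoding RNA for 188 (26.4%) and to pseudogenes, small RNAs and other records for 117 (16.4%). The peaks were spread over 691 genes, and 21 genes had a pair of them, among them ABLIM1, BCL9L, FOXP1, EFNA5, CD82 and ABCC3. Their number fell with distance, from 237 in the first 500 bp of the range through 178 and 168 to 129 in the last 500 bp. The downstream side had 271, 198, 188 and 141 peaks in the same steps. Upstream of the nearest TSS did not always mean outside the gene: 250 of the summits (35.1%, 31.7% to 38.7%) lay in the body of the gene whose TSS was nearest, so that this TSS was an internal start of a longer gene. A further 182 (25.6%) lay only in another gene and 280 (39.3%) in none. Of the proximal upstream peaks, 40.6% lay in the body of the gene of their nearest TSS, and of the far peaks 36.9% did. The share of all peaks, 50.2%, includes peaks downstream of a TSS, which mostly lie inside the gene (75.1% of the downstream peaks). The body of any other gene held 29.9% of the 712 summits and 25.4% of those of all peaks. An exon held 52 of the 712 summits (7.30%), against 3.86% of the far peaks and 16.9% of the downstream peaks. The share was 24.0% in proximal upstream peaks and 24.1% in all peaks, which include those within 1 kb of a TSS that the rule leaves out here.

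A second SOX9 peak often lay within 1 kb of a TSS of the same gene. Such a proximal peak was present for 314 of the 712 distal promoter peaks (44.1%, 40.5% to 47.8%), and 360 of the 798 downstream peaks (45.1%) had one, a difference of -1.01 points (interval -6.01 to 4.0, adjusted exact p = 0.778). By the same count, 26.3% of all peaks, 31.6% of the far peaks and 18.3% of the proximal upstream peaks had another such peak. The peak itself was not counted, so a peak that already lay within 1 kb of a TSS needed a further one. This lowers the shares of all peaks and of proximal upstream peaks. Among distal promoter peaks, the share differed with the place of the summit. It was 69.6% (63.6% to 75%) for summits inside the own gene and 30.3% for those outside it. Most of the downstream peaks, 75.1%, lay inside the own gene, and with summits outside it in both classes the distal promoter peaks were 7.69 points higher (adjusted exact p = 0.0995). A proximal peak was present for 65.1% of the peaks at protein-coding genes (60.4% to 69.6%) and 22.9% of those at long noncoding RNAs (17.4% to 29.4%), wherever the summit lay. Place and gene type went together, as 214 of the 250 summits inside the own gene were at protein-coding genes. At protein-coding genes alone, a proximal peak was present for 165 of the 214 inside the own gene (77.1%, 71.0% to 82.2%). Outside the gene body it was present for 100 of 193 (51.8%, 44.8% to 58.8%). With the second peak counted only within 1 kb of the nearest TSS itself, the share among all 712 was 22.2%. The gap to the proximal peak had a median of 2973.5 bp (quartiles 1898.8 and 19099.5 bp), and it was within 5 kb for 182 of the 314. The proximal peak usually held more tags than the distal peak. It did so in 212 of 314 pairs, with equal tags in 8 and fewer in 94, and the medians were 55 tags for the proximal and 38.0 for the distal peak.

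The mean signal at these summits was about as high with and without a second peak at the nearest TSS. At the summit, the SOX9 signal averaged 21.3 tags per bin for the 158 peaks with one and 20.8 for the 554 without. The input averaged 2.94 and 2.84 at the same bin. On the gene side, more than 1600 bp from the summit, the SOX9 signal averaged 6.43 and 1.74. At the nearest TSS the SOX9 signal averaged 13 tags per bin for the 158, which, like the signal on the gene side, follows from how they were chosen. It was 2.37 for the 554, against 1.26 in the input.

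**Figure D2:**
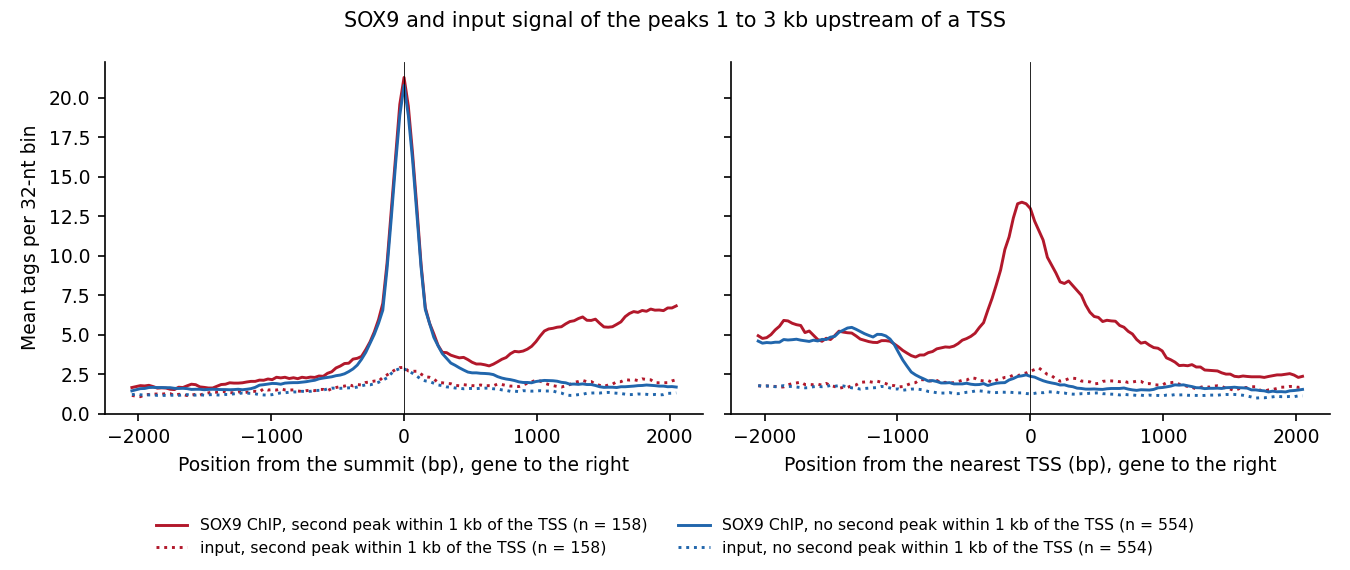
Mean tags per 32-nt bin around the summits (left) and around the nearest TSSs (right) of distal promoter peaks, with the gene to the right, in the SOX9 ChIP (solid) and the input (dotted). Red marks the 158 peaks with a second peak within 1 kb of the same TSS and blue the 554 without; both reach about the same height at the summit, 21.3 and 20.8, and differ at the TSS, 13 and 2.37.

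Base composition set distal promoter peaks apart from proximal ones. A window of 200 bp at the summit was called CpG island-like at a GC content of 50% or more and a ratio of observed to expected CpG of 0.6 or more. This held for 116 of the 712 (16.3%, 13.8% to 19.2%), against 47.0% of all peaks and 80.8% of proximal upstream peaks (a difference of -64.5 points, adjusted exact p = 7.01e-263). The share exceeded that of the far peaks, 6.87%, by 9.42 points (adjusted exact p = 6.49e-15). Against the downstream peaks, 21.1%, it was 4.76 points lower (adjusted exact p = 0.0411), a difference that no longer passed the test in peaks with a score of 100 or more (-2.90 points, adjusted exact p = 0.476) and changed sign with summits outside the own gene in both classes (3.83 points, adjusted exact p = 0.407). The median GC content was 51.5%, against 67.0% in proximal upstream and 45.5% in far peaks. The median ratio of observed to expected CpG was 0.270, against 0.861 and 0.218. CpG island-like windows made up 58 of the 193 outside the gene body at protein-coding genes (30.1%, 24.0% to 36.9%) and 24 of the 250 inside the own gene (9.60%, 6.54% to 13.9%).

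Of the 14 motifs searched, the AP-1 site differed most between the summits and their flanks in percentage points. TGANTCA was present within 100 bp of the summit in 156 of the 712 peaks (21.9%, 19.0% to 25.1%), as in the FRY and ZMIZ1-AS1 windows above. Windows of the same length placed 1 kb farther from the gene held it in 48 cases (6.74%), 15.2 points fewer (adjusted exact p = 8.49e-16), and windows 1 kb nearer to the gene in 49 (6.88%). All peaks held it in 15.1%. Proximal upstream peaks held it in 5.67% (a difference of 16.2 points, adjusted exact p = 6.75e-40), far peaks in 27.2% (-5.33 points, adjusted exact p = 0.00473) and downstream peaks in 19.8% (2.11 points, interval -1.98 to 6.23, adjusted exact p = 0.490). The lower share than in far peaks lost significance in peaks with a score of 100 or more (-4.47 points, adjusted exact p = 0.108). Of the 156 AP-1 peaks, 104 (66.7%) had the site within 50 bp of the summit, with a median distance of 37 bp. Only 7 of them (4.49%) were CpG island-like, and their median of 37 tags was close to that of all distal promoter peaks. The flank comparison treats summit and flank windows of the same peaks as independent. An exact McNemar test that pairs them gave an adjusted p of 6.78e-16. The flanks had a median GC content of 47.8%, against 51.2% at the summits, and the part of base composition in these shares was not tested.

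Motif 2, the single SOX site, was searched as CAAAG or CAATG preceded by 2 bases that are each A or T, on both strands. It lay in 191 of the 712 windows (26.8%, 23.7% to 30.2%), against 20.5% of all peaks. The windows 1 kb farther out held it in 19.2%, 7.58 points fewer (adjusted exact p = 0.00195), but with flanks at 2 kb the difference was 5.20 points (adjusted exact p = 0.0510) and among summits outside the own gene 3.9 points (adjusted exact p = 0.294). Windows 1 kb nearer to the gene held it in 20.9%. Proximal upstream peaks held Motif 2 in 8.59% (18.2 points fewer, adjusted exact p = 4.69e-39) and far peaks in 36.0% (9.14 points more, adjusted exact p = 2.31e-06). The downstream peaks, at 26.8%, differed by 0.00880 points (interval -4.45 to 4.49, adjusted exact p = 1.00). The TCF site CTTTGAT, bound by the Wnt effectors TCF and LEF, is by its letters a form of Motif 2. All 39 distal promoter peaks with it (5.48%) were therefore also Motif 2 peaks. The flanks held the TCF site in 1.54% (a difference of 3.93 points, adjusted exact p = 0.000165). Motif 2 sites of other letters were present in 162 summit windows (22.8%, 19.8% to 26.0%) and 131 flank windows (18.4%, 15.7% to 21.4%).

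Motif 3, the paired SOX site, was rarer and lay closest to the summits of the SOX-type sites. It was found in 32 of the 712 windows (4.49%, 3.20% to 6.28%), against 1.69% of the flanks (a difference of 2.81 points, adjusted exact p = 0.00688) and 3.57% of all peaks. Proximal upstream peaks held it in 0.860% (3.63 points fewer, adjusted exact p = 5.90e-11). Far peaks held it in 7.1% (a difference of -2.60 points, adjusted exact p = 0.0164), which lost significance with windows of 50 bp to either side (-1.68 points, adjusted exact p = 0.0910). The downstream peaks held it in 4.51% (a difference of -0.0169 points, interval -2.13 to 2.15). The site lay within 50 bp of the summit in 27 of the 32 (84.4%), and the median distance was 26.0 bp. The 4 Motif 3 peaks with the most tags were at MARCKSL1 (136 tags, 1.5 bp from summit to the centre of the site), COX19, a cytochrome c oxidase assembly factor (115 tags, 12.5 bp), the interferon-induced gene IFI35 (95 tags, 5.50 bp) and LRRC36 (86 tags). COX19 and MARCKSL1 also had a proximal peak, whereas IFI35 and LRRC36 did not.

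No enrichment of CCAAT boxes at the summits over their flanks was detected. CCAAT was found in 147 of the 712 windows (20.6%, 17.8% to 23.8%), in 23.6% of the flanks (a difference of -2.95 points, adjusted exact p = 0.334) and in 26.4% of all peaks. Proximal upstream peaks held it in 35.2%, 14.6 points more (adjusted exact p = 4.36e-15). The longer Motif 1 was present in 24 (3.37%, 2.28% to 4.97%), against 8.98% of all peaks and 17.7% of proximal upstream peaks (14.3 points more, adjusted exact p = 4.62e-29). The flanks held it in 1.4% (a difference of 1.97 points, adjusted exact p = 0.0432). This was lost in the narrower windows of 50 bp to either side (0.562 points, adjusted exact p = 0.654) and with flanks at 2 kb (1.12 points, adjusted exact p = 0.392), and the median distance of the sites from the summit was 55.5 bp. The few Motif 1 peaks included some of the tallest. ZBTB32 and JUNB, with 2 of the 5 highest fold enrichments, both held Motif 1 in a CpG island-like window with a GC box. The other Motif 1 peaks with the most tags lay upstream of the pseudogene RPL13AP20 (154 tags, fold enrichment 12.42) and of LINC01623 (146 tags, 35). As a group, the 24 had a median of 45.5 tags (quartiles 27.2 and 74.0), against 35 for the 191 with Motif 2 and 42.0 for the 32 with Motif 3.

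Of the other motifs searched on both strands, most were more frequent at distal promoter summits than 1 kb farther out. Of all 14 motifs, 10 were higher at the summits by Fisher's exact test, adjusted over the 63 tests made, and none was lower. CTCF, the insulator protein's site, had the largest ratio, with 45 peaks (6.32%) against 0.843% of the flanks (7.5 times, adjusted exact p = 3.53e-08) and 3.34% of all peaks. Its share was also above that of the far peaks, 4.12% (a difference of 2.20 points, adjusted exact p = 0.0176), but not with windows of 50 bp to either side (1.48 points, adjusted exact p = 0.0663). The forkhead site TGTTTAC was present in 7.87% against 1.69% of the flanks (adjusted exact p = 9.66e-08) and 4.88% of all peaks. The TEAD site CATTCCA of the Hippo pathway was present in 8.01% against 2.25% (adjusted exact p = 2.31e-06) and 4.31% of all peaks. The GC box GGGCGG was present in 19.7% against 7.58% (adjusted exact p = 1.06e-10) and 37.7% of all peaks. The ETS site CCGGAA was present in 6.74% against 2.25% (adjusted exact p = 0.000134) and 15.1% of all peaks, a call lost in peaks with a score of 100 or more (3.11 points, adjusted exact p = 0.0642). Proximal upstream peaks held the GC box in 60.8% and the ETS site in 24.9%, both above the distal promoter peaks (adjusted exact p = 1.62e-99 and 6.65e-33).

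The GATA site AGATAA was present in 12.5% of the summit windows and 11.4% of the flanks (adjusted exact p = 0.662), and in 10.0% of all peaks. The CDX site CCATAAA was present in 4.21% and 3.37% (adjusted exact p = 0.628), and in 2.80% of all peaks. The HNF4 site CAAAGTCC was present in 0.843% and 0.421% (adjusted exact p = 0.638), and in 1.18% of all peaks. The TCF site was present in 3.41% of all peaks. No motif passed the test between distal promoter peaks and the downstream peaks at the same distance, and the intervals of these 14 differences reached at most from -8.02 to 6.23 points. The exception among the alternatives was the GC box in windows of 50 bp to either side, with a difference of -4.56 points (adjusted exact p = 0.0174). Of the 712 peaks, 338 (47.5%) held none of CCAAT, Motif 1, Motif 2, Motif 3 and AP-1, against 50.4% of all peaks. Of the 338, 256 (36.0% of the 712) were not CpG island-like either. That share was 20.1% in all peaks, 33.2% in downstream peaks and 31.9% in far peaks. Motif 2 and AP-1 were both present in 49 peaks, 25.7% of the Motif 2 and 31.4% of the AP-1 peaks, and 24 of the 48 ETS peaks also held a GC box.

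**Figure D3:**
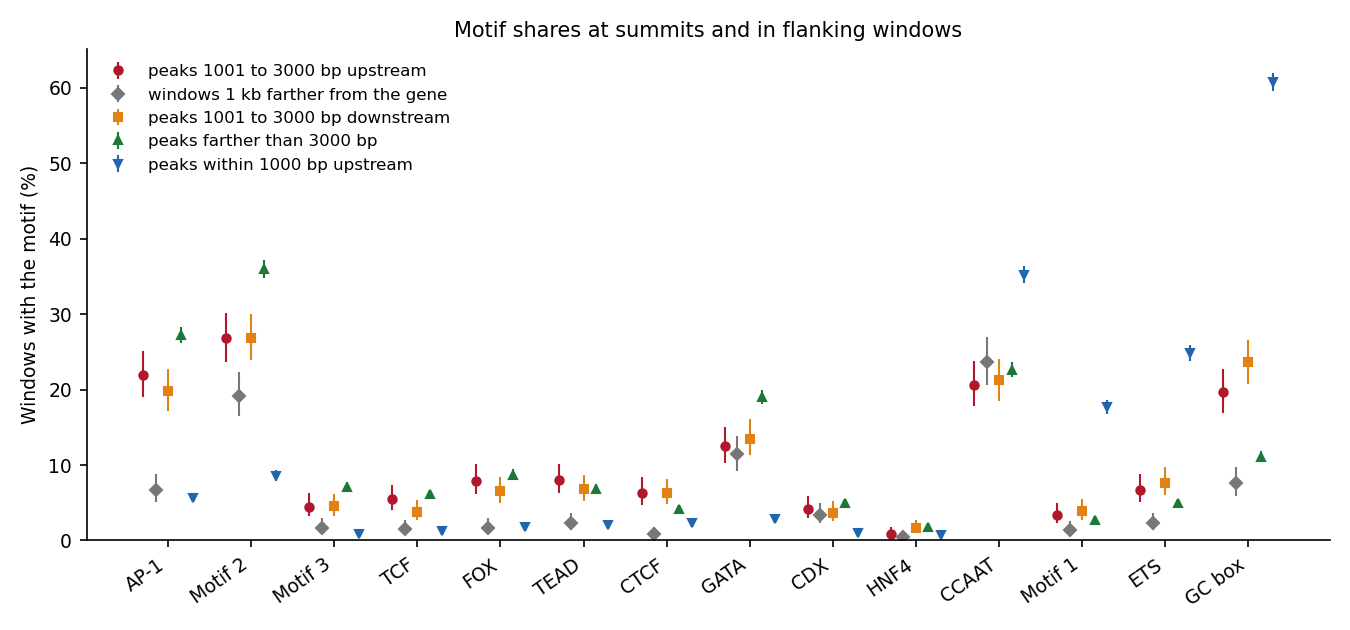
Percent of windows, 100 bp to either side of the centre, with each of 14 motifs, with Wilson 95% intervals, in distal promoter peaks (red), in windows 1 kb farther from the gene (grey), in peaks 1 to 3 kb downstream (orange), farther than 3000 bp (green) and within 1000 bp upstream (blue). Red and orange points lie close together for every motif. Blue points lie apart, at 60.8% for the GC box and 5.67% for AP-1, except for HNF4 (blue 0.785%, red 0.843%).

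Within the distance range, CpG island-like windows were less frequent and AP-1 sites more frequent farther out, and the trend was not tested. CpG island-like windows made up 21.5% (16.8% to 27.2%) of the peaks in the first 500 bp and 12.4% (7.78% to 19.2%) in the last. AP-1 was present in 17.3% (13% to 22.6%) and 26.4% (19.5% to 34.6%) of the same peaks, whose intervals overlap. Motif 2 went from 28.3% to 24.8% with no order in between. Inside the own gene, Motif 2 was present in 30.8% (25.4% to 36.8%) and AP-1 in 17.6% (13.4% to 22.8%). Outside any gene the shares were 23.6% (19.0% to 28.9%) and 25.4% (20.6% to 30.8%).

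**Figure D4:**
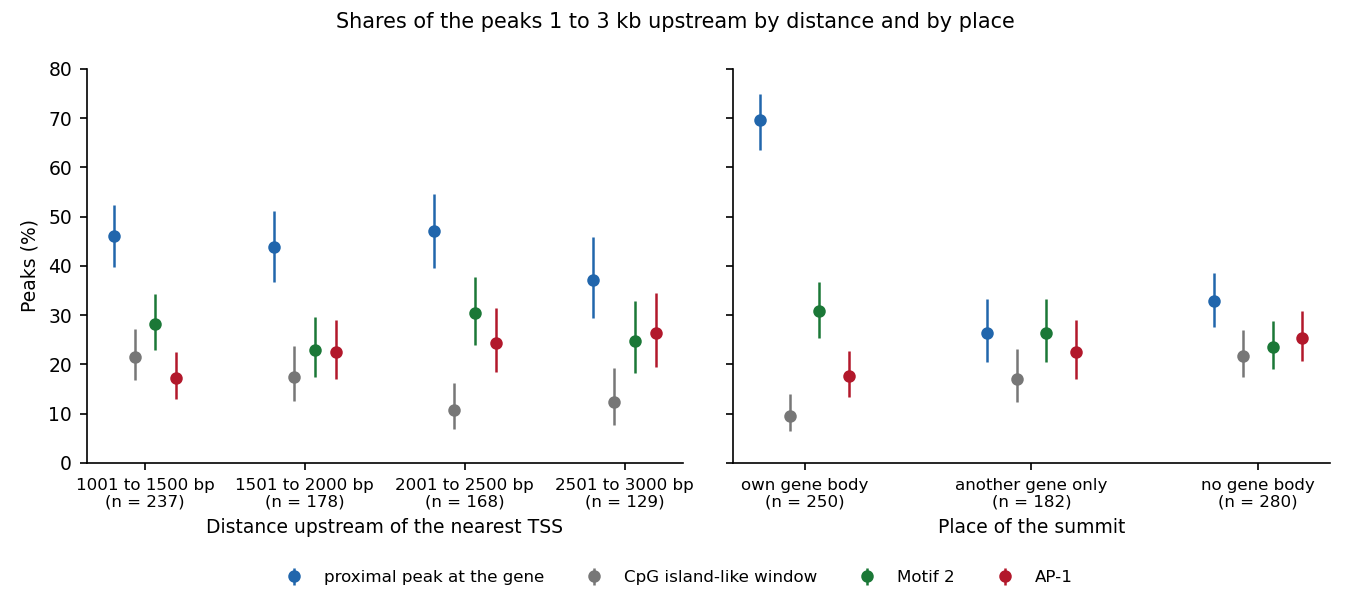
Percent of distal promoter peaks with a proximal peak at the same gene (blue), a CpG island-like window (grey), Motif 2 (green) and AP-1 (red), by distance from the nearest TSS (left) and by the place of the summit (right), with Wilson 95% intervals. A proximal peak is most frequent inside the own gene, 69.6%, and AP-1 goes from 17.3% in the nearest to 26.4% in the farthest step.

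Of the 20149 protein-coding genes, 391 (1.94%) had the TSS nearest to a distal promoter peak, and 255 of the 391 (65.2%) also had a proximal peak, as did 44.8% of all protein-coding genes. Among 316 genes of 9 lists chosen for this tissue and for SOX9, 27 (8.54%) had a distal promoter peak. The lists were rich in genes with a proximal peak, 68.0%, and were put together with results of these data known. By the broader rule of any summit more than 1 kb and up to 3 kb upstream of any TSS of the gene, 94 of the 316 (29.7%) and 14.5% of all protein-coding genes counted. Of the 27 genes, 24 also had a proximal peak, the exceptions being HAPLN1, ITGA2 and SPRED1.

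Of 45 Wnt pathway genes, 4 had a distal promoter peak. The peak of CCND1, cyclin D1, held 100 tags at 2875 bp, with Motif 2 and a GC box in a CpG island-like window. TLE3, a Groucho corepressor of TCF, had 94 tags at 1543 bp, and the ligand WNT11 had 60 tags at 1236 bp. The WNT11 peak lay inside the gene, upstream of an internal TSS. The last was BCL9, a co-activator of beta-catenin. All 4 had a proximal peak, which held more tags than the distal peak at TLE3 (151 tags) and fewer at CCND1 (62 tags) and WNT11 (42 tags).

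Of 41 genes of Notch, EGF receptor and ERK signalling, 4 had one. SPRED1, an inhibitor of RAS and ERK signalling, had 102 tags at 1258 bp and no proximal peak. The receptor NOTCH1 had 70 tags, and its peak lay inside the gene, 2323 bp upstream of an internal TSS. ERBB3, a receptor of neuregulins, had 31 tags in the same kind of position, and the ERK phosphatase gene DUSP5 was the last. Of 27 TGF-beta and BMP genes, the corepressor SKI (33 tags) and the signal transducer SMAD3 (19 tags) had one, both inside the gene, and the SMAD3 peak held Motif 3.

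Of 30 gut transcription factor genes, 3 had a distal promoter peak, all inside the gene and upstream of an internal TSS. They were EHF, an epithelial ETS factor (90 tags, 67 in its proximal peak), KLF5, a factor of dividing crypt cells (46 tags, 174 in its proximal peak), and the nuclear receptor NR5A2 (28 tags, 25 in its proximal peak). At KLF5 the input over 1 Mb was 2.04 times the median autosomal window.

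Epithelial genes had the most, 8 of 48. PLEC, the cytolinker plectin, had 79 tags, the tight junction protein gene CLDN4 had 74, and CTNND1, p120 catenin, had 62. The peaks of PLEC, CLDN4 and CTNND1 all lay inside the gene, upstream of an internal TSS. The others were KRT19, JUP, ITGA2, ITGB4 and EPHB3. Of 35 genes of AP-1, stress and inflammation, 5 had one: JUNB (119 tags), FOSL2 (38 tags), FOSL1 (33 tags), FOS and NFKB1. The proximal peaks at FOSL1 and FOSL2 held 192 and 161 tags, several times those of the distal peak, whereas at JUNB the proximal peak held 46. Among 19 cartilage and matrix genes only HAPLN1, a link protein of cartilage, had one, with 32 tags. The count was 0 of 33 for intestinal differentiation genes and 0 of 38 for genes of G2 and M phase, lists in which a share of 1.94% would amount to less than 1 gene. By the broader rule, 1 of the 33 and 9 of the 38 (23.7%) had an upstream summit, among the latter CDK1 and CDC20.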

How the data were processed

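Per the submitters' processing notes, reads were aligned with BWA to hg19. The authors kept unique alignments, sampled the input down to the ChIP and called peaks with MACS (p cut-off 1e-07). In the deposited peak list, tags are counts, the score is -10 times the log10 of the MACS p-value, fold enrichment is a ratio to the local input and the FDR is in percent. The deposited signal is a count of overlapping tags, each lengthened to 150 bp, per 32-nt bin. The interval file in BED format repeats the list and was not used.

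Summits were assigned to TSSs in GENCODE release 44 on hg19 (254413 transcripts). Shares were compared by two-sided Fisher's exact tests with Benjamini-Hochberg adjustment over 63 tests, at a level of 0.05, and have Wilson 95% intervals. Intervals of differences are Newcombe intervals and those of tags are exact Poisson intervals. All cover counting error only. A proximal peak has its summit within 1000 bp of any TSS of the gene. Raised input is a mean over 1 Mb above 2 times that of the median autosomal window. The steps were tested on simulated data. The tools were SciPy 1.17.1 and NumPy 2.4.6 under Python 3.11.15, with pandas 2.3.3 for tables and matplotlib 3.10.9 for plots.

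The members and lists were chosen with earlier results of these data known. Named genes are those of the 10 peaks with the most tags, the 5 with the highest fold enrichment among peaks of at least 45 tags, the 4 with the most tags for each of Motif 1, Motif 3 and AP-1 and with or without a proximal peak, and up to 3 per list. The sequences shown are from the 3 peaks with the most tags in each set, and some items are not reported here. Other list genes and those with a pair of peaks were named after their values were seen. Alternatives were other TSS sets, the interval midpoint, a score of at least 100, other windows and flanks, other limits for composition and proximal peaks, other measures of height, and summits outside the own gene. Restriction to protein-coding TSSs, leaving out raised input, summits outside the own gene in both classes, and the McNemar test were added after seeing the data.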

Additional observations from a re-analysis of the deposited data

How the results depend on the processing

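The number of distal promoter peaks depended most on the annotation. It was 458 with TSSs of protein-coding transcripts (295 shared), 334 with 1 TSS per protein-coding gene (196 shared) and 418 at a score of at least 100. List genes with a peak numbered 94 by the broader rule. The cause was not tested for the following changes. By fold enrichment the difference in the share above the median peak was -0.767 points from proximal upstream peaks and turned to -4.93 points from far peaks (adjusted exact p = 0.0257). With only the distal promoter peaks limited to summits outside the own gene, and all peaks of the other class kept, the difference in proximal peaks from downstream peaks passed the test at -14.8 points, and the differences were -1.14 for CpG island-like windows against downstream peaks, 3.9 for Motif 2 against flanks, and -2.55 for Motif 3 and -3.00 for AP-1 against far peaks; none of these 4 passed the test. With both classes so limited, the first was 7.69 points (adjusted exact p = 0.0995) and the CpG difference turned to 3.83 (adjusted exact p = 0.407). The CpG difference from downstream peaks also failed at a score of at least 100 (-2.90), at protein-coding TSSs (-6.15) and without raised input (-4.61). Against flanks, Motif 1 failed with windows of 50 and 25 bp to either side (0.562 and 0.140) and flanks at 2 kb (1.12), Motif 2 with flanks at 2 kb (5.20) and Motif 3 at protein-coding TSSs (2.70). Against far peaks, Motif 3 failed with windows of 50 and 25 bp (-1.68 and -1.02), a score of at least 100 (-3.17) and protein-coding TSSs (-1.74), and AP-1 likewise (-3.36, -2.13, -4.47 and -4.39). For the main results, 149 of the alternative values kept their side of the test or stayed within their limits. Of the others, 21 lost the test, 1 gained it, 4 moved beyond their limits and 2 were reversed. AP-1 against flanks and against proximal upstream peaks passed in every alternative run. Pairing each summit window with its flank (exact McNemar test) changed no call among the 14 motifs. No paired analysis was possible because, between the sample groups, there is only 1 ChIP and 1 input library, and no library could be left out.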
